A study of Mus musculus with 18 samples.

Results

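Usp18, the deconjugase that removes ISG15 from proteins and restrains type I interferon signalling, was set beside 7 other genes of the interferon response in sorted mouse lung epithelial cells. The 8 genes were Usp18, Isg15, Ifit1, Ifit3, Oas1a, Irf7, Irf9 and Stat2, of 30142 genes measured. Each was read from a probe set annotated with that symbol and no other; where a gene had several, the brightest on average was used. The question was whether Usp18 moved with the other interferon-stimulated genes or apart from them.

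Type I and type III interferons bind receptors at the cell surface and switch on the kinases JAK1 and TYK2. These phosphorylate STAT2, which acts with IRF9 in a complex that binds interferon-stimulated response elements in the promoters of genes such as Isg15, Ifit1, Oas1a, Irf7 and Usp18. USP18 closes the loop, because it sits on the receptor subunit IFNAR2 and blocks the kinases, and it also strips ISG15, a small ubiquitin-like protein, from its targets. Airway and alveolar epithelium is among the tissues in which this response limits respiratory viruses.

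All mice were of the strain TCF/Lef:H2B/GFP, in which a TCF/Lef reporter of Wnt signalling makes a green fluorescent histone, and were 8 to 12 weeks old. The labels name no infection and no interferon treatment, and the groups share the genotype and were set by the level of the reporter. Lungs with trachea and bronchi were digested, cells with CD31 or CD45 were depleted, and living EpCAM+ cells were sorted into Wnt-high (GFPhigh), Wnt-low (GFPlow) and Wnt-negative (GFPneg) groups. Each group had 6 arrays, each from a pool of 3 to 4 animals and 8 ng of RNA. Experiments 4, 5, 7, 8 and 9 gave an array of each group. Experiment 2 gave a Wnt-high array alone, and experiment 3 a Wnt-low and a Wnt-negative one. The reporter marks cells by their response to Wnt and not by cell type, and pooled animals leave the spread between single animals unmeasured.

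The values were log2 values on an arbitrary scale. By array medians and the number of decimals they fell into 2 runs, which were taken to have been normalized apart from each other. The labels name no runs. Array medians were 4.62 to 4.77 in experiments 2 to 5 (9 arrays) and 3.55 to 3.69 in experiments 7 to 9 (9 arrays), so tests carried the run as a term, and any range given over both runs includes the shift between them. Background was taken for each array as the 95th percentile of 23 background control probe sets, which lay at 4.82 to 5.17 in experiments 2 to 5 and at 4.57 to 4.92 in experiments 7 to 9. Epcam, the gene of the sorting antigen, read 9.66 to 11.7 on the 18 arrays. Of 12 leukocyte markers, 1 to 3 were above background on each Wnt-high and each Wnt-low array and 1 to 4 on each Wnt-negative array, with Ptprc, the gene of CD45, below it on all 18 arrays.

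Sequence upstream of the members held the letters that the STAT and IRF factors bind in most of the genes for which a promoter entry was found. Promoters, from 250 bases before to 50 after each start, were taken from RefSeq on build GRCm38.p6 for 7 of the 8 genes, with a second one for Irf9; Usp18 had no entry. The response element was searched on both strands as GAAA, any 2 bases and GAAA again, a motif that 1131 of 32851 RefSeq promoters (3.44%) hold. Isg15 had 3 overlapping matches, Ifit1, Ifit3 and Oas1a had 2 each, Stat2 had 1, and neither Irf7 nor either Irf9 promoter had any. A match describes letters and is not a measured binding site. The 4 sequences below stand for the patterns described afterwards. They are those of a member that hardly moved (Isg15) and of the effectors whose group mean was highest in Wnt-low cells (Ifit1 and Oas1a). The last is that of a member that, like Irf9, was lower in both GFP+ groups (Stat2). Each sequence is written 5′ to 3′ on the strand of the gene, with the matches in capitals.
Isg15, at chr4:156200769-156201068, minus strand: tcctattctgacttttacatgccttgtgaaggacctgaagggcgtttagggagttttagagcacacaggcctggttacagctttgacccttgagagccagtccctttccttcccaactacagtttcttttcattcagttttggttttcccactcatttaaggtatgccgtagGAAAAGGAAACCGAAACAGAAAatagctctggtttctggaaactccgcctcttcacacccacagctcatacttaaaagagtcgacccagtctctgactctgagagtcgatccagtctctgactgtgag
Ifit1, at chr19:34640639-34640938, plus strand: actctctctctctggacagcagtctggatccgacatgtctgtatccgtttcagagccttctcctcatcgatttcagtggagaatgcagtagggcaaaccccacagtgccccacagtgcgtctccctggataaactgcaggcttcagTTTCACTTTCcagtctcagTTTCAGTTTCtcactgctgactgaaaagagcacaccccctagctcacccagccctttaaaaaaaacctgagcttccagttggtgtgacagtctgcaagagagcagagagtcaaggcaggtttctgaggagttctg
Oas1a, at chr5:120907476-120907775, minus strand: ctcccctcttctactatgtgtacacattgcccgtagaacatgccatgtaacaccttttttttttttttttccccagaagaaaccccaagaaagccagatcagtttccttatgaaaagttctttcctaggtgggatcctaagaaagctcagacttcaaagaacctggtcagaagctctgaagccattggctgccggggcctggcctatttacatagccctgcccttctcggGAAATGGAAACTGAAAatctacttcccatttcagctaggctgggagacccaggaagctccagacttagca
Stat2, at chr10:128270248-128270547, plus strand: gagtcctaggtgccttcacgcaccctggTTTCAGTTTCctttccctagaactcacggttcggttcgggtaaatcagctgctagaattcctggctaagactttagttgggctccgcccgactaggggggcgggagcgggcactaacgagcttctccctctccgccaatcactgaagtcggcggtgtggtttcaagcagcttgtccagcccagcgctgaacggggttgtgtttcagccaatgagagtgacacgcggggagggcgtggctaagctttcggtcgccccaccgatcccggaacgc
The matches of Isg15 began 78, 72 and 66 bases before the start and ran into each other as 1 block. Those of Ifit1 lay 104 and 85 bases before the start, both on the reverse strand, and those of Oas1a lay 20 and 14 bases before it and overlapped. The match of Stat2 lay farthest out, 222 bases before its start, near the edge of the window. The second motif searched, TTCNNNGAA, which STAT dimers bind and which 2726 of 32851 promoters (8.3%) hold, was found in Oas1a, 98 bases before the start.

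Usp18 itself (chromosome 6, 121245906 to 121270917, GRCm38.p6) was by far the most variable of the 8. In experiments 2, 4 and 5 it read 14.05, 13.13 and 13.44 in Wnt-high cells. In experiments 3, 4 and 5 it read 12.50, 8.20 and 10.48 in Wnt-low cells, and 6.63, 5.52 and 5.37 in Wnt-negative cells. The 3 groups did not overlap, and the Wnt-low arrays spread far more than the arrays of the other groups.

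In experiments 7, 8 and 9 Usp18 read 13.51, 13.34 and 13.43 in Wnt-high cells, 7.41, 10.08 and 8.83 in Wnt-low cells, and 5.03, 4.15 and 4.60 in Wnt-negative cells. The order of the groups was the same as in the earlier run, again without overlap. On 2 of the 6 Wnt-negative arrays Usp18 was below background, whereas it was above background on every Wnt-high and Wnt-low array. As these are sorted bulk samples, fewer cells of a type and less RNA per cell cannot be told apart in any of the values given here.

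**Figure D1:**
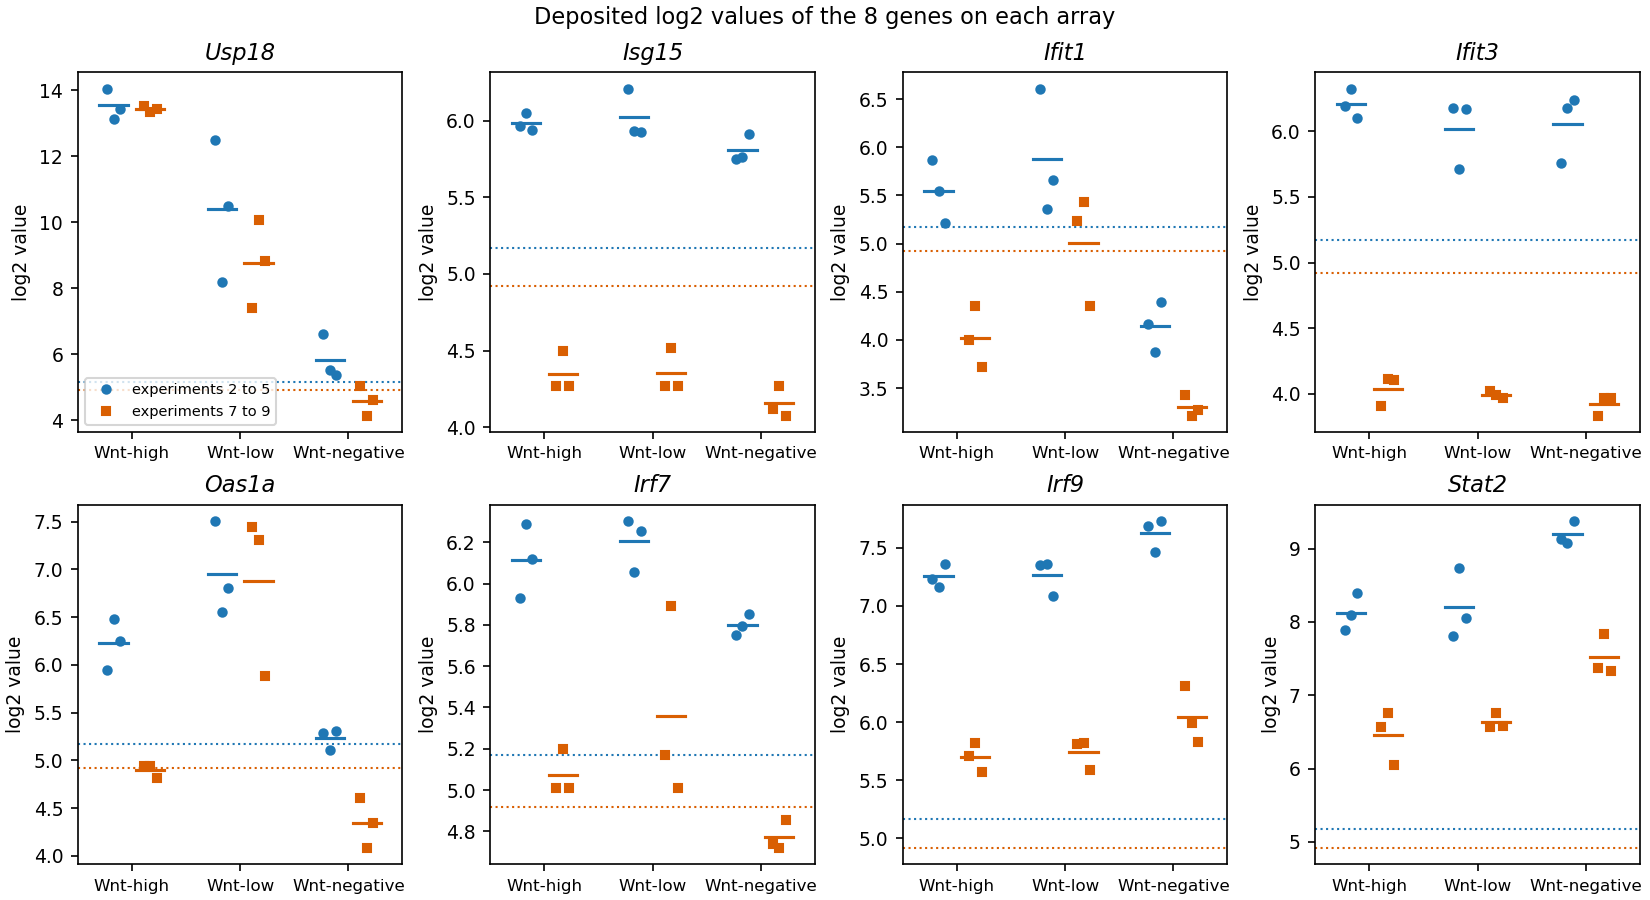
Deposited log2 values of the 8 genes (vertical axes, own range per panel) on each array of the Wnt-high, Wnt-low and Wnt-negative groups, with experiments 2 to 5 as circles and experiments 7 to 9 as squares. Short lines are means of 3 arrays and dotted lines the highest background of each run. Usp18 spans values of 14.05 to 4.15, while Isg15 and Ifit3 differ more between the runs than between the groups.

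Differences were tested with limma in 1 fit of all 18 arrays with the run as a term, with Benjamini-Hochberg adjustment over all 30142 genes. The Usp18 difference of Wnt-high minus Wnt-negative cells was 8.27 ± 0.59 (log2 difference ± SE, limma adjusted p = 1.64e-08). That of Wnt-low minus Wnt-negative cells was 4.37 ± 0.59 (limma adjusted p = 6.46e-05). With the 2 Wnt-negative values below background set to that level, these differences were at least 8.09 and at least 4.19. Counting from the top of the list of differences, Usp18 was gene 69 of 30142 for Wnt-high against Wnt-negative cells and gene 158 for Wnt-low against Wnt-negative cells.

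Wnt-high cells also exceeded Wnt-low cells in Usp18, by 3.90 ± 0.59 (limma adjusted p = 8.72e-05), which placed it as gene 36 from the top. In that comparison the call did not hold in experiments 2 to 5 alone, where the difference was 3.15 and the limma adjusted p 0.0869, while in experiments 7 to 9 it was 4.66 with a limma adjusted p of 0.00139. Usp18 was higher in Wnt-high cells in 5 of 5 experiments that had both groups, by 2.96 to 6.10. The replicates in these tests are pools from separate experiments.

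The 7 other genes moved by much smaller amounts. In Wnt-high against Wnt-negative cells 7 of the 8 genes passed, where 40.3% of all genes did. Of the 8, 5 were higher (Usp18, Ifit1, Oas1a, Irf7 and Isg15), where 15.7% of all genes were, and 2 were lower (Stat2 and Irf9), where 24.6% were. In Wnt-low against Wnt-negative cells the same 5 genes were higher and the same 2 lower, where 12.3% and 13.2% of all genes, 25.5% in all, were called. In Wnt-high against Wnt-low cells 3 of the 8 passed, a share near the 27.9% of all genes. Usp18 was the only one higher, where 11.4% of all genes were, and Oas1a and Ifit1 were lower, where 16.4% were. The median difference of the 8 genes was 0.25, 0.35 and −0.08 in these comparisons, against −0.05, −0.03 and −0.01 over all genes. Comparisons share their groups, so they are not independent of each other.

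Size told the members apart. A difference of at least 1 together with the test was met by Usp18, Ifit1 and Stat2 in Wnt-high against Wnt-negative cells (13.9% of all genes), by Usp18, Ifit1 and Oas1a in Wnt-low against Wnt-negative cells (7.65%), and by Usp18 and Oas1a in Wnt-high against Wnt-low cells (9.1%).

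**Figure D2:**
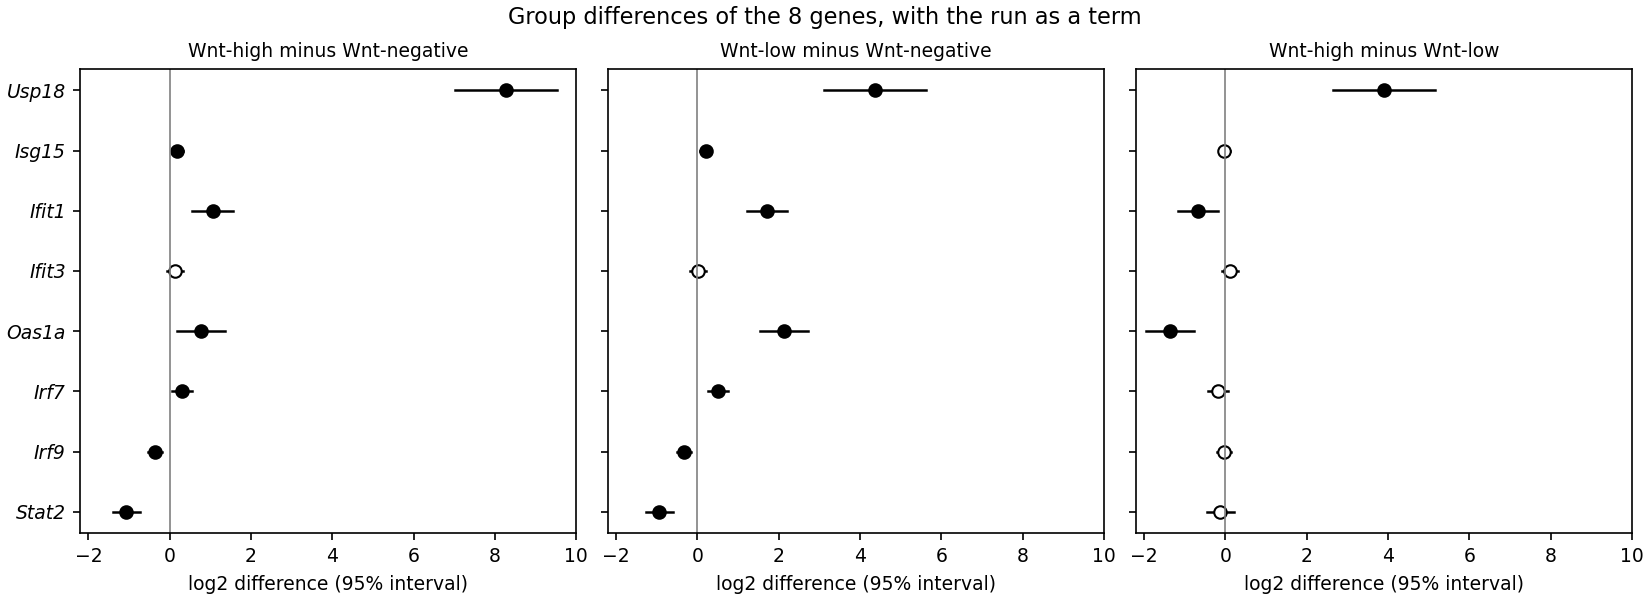
Log2 differences of the 8 genes (horizontal axis) with 95% intervals from the limma fit with the run as a term, for Wnt-high minus Wnt-negative, Wnt-low minus Wnt-negative and Wnt-high minus Wnt-low cells. Filled points passed an adjusted p of 0.05. Usp18 stands at 8.27, 4.37 and 3.90, while the 7 other genes lie between −1.36 and 2.13.

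Usp18 moved apart from each of the other 7 genes. The change of Usp18 minus the change of the other gene was tested with an exact two-sided permutation of the group labels within each run, which gives 400 arrangements and a smallest p of 0.005, and adjusted over the 21 tests. In Wnt-high against Wnt-negative cells Usp18 exceeded the others by 7.21 (against Ifit1) to 9.33 (against Stat2), with an adjusted p of 0.00525 in all 7 exact permutation tests. In Wnt-high against Wnt-low cells it exceeded them by 3.78 (against Ifit3) to 5.26 (against Oas1a), again with an adjusted p of 0.00525 in all 7 exact permutation tests. All 21 tests share the Usp18 values, so the 7 results of a comparison are not independent of each other. In these comparisons of Wnt-high cells the other genes changed by less, and the results largely restate the Usp18 difference. The genes were also chosen with earlier results of these data known, which the p-values do not take into account. In experiments with both groups the sign of the gap was the same in 5 of 5 for each of the 7 genes. Permuting within those 5 experiments, as a replicate block, gave an exact p of 0.0625 in all 14 of these tests, which is the smallest that 5 pairs allow, so no call could be made in that way. Values of Ifit1, Isg15, Ifit3 and Oas1a, and the Wnt-negative values of Irf7 and of Usp18 itself, were in part below background. Gaps that rest on them are gaps between deposited values, and their sizes are no bounds. The same holds in Wnt-low against Wnt-negative cells.

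In Wnt-low against Wnt-negative cells the gap was narrower. Usp18 exceeded Stat2 by 5.30, Ifit1 by 2.65 and Oas1a by 2.24, the last with an exact permutation p of 0.025 and an adjusted p of 0.025, while the other 6 genes had an adjusted p of 0.00525. Usp18 exceeded Oas1a in 5 of 6 experiments and each of the other 6 genes in 6 of 6. The difference from Oas1a lost its call when any of the experiments 3, 4, 5, 8 or 9 was left out, with values of 1.97 to 2.64 and exact permutation p-values of 0.0667 to 0.0833. Permuting within experiments, with the experiment as a replicate block, gave an exact p of 0.0625 for Oas1a in that comparison, where 0.03125 is the smallest possible.

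Among the effectors, Ifit1 and Oas1a both had their highest group mean in Wnt-low cells in each run. Wnt-low and Wnt-high arrays were apart in both runs for Oas1a, but overlapped in experiments 2 to 5 for Ifit1. Ifit1 (chromosome 19, 34640889 to 34650009) encodes a protein that binds viral RNA lacking host cap methylation and blocks its translation. In experiments 2 to 5 it read 5.87, 5.54 and 5.22 in Wnt-high cells, 6.61, 5.36 and 5.66 in Wnt-low cells, and 4.17, 3.87 and 4.39 in Wnt-negative cells. In experiments 7 to 9 it read 3.99, 4.35 and 3.71 in Wnt-high cells, 5.23, 5.43 and 4.35 in Wnt-low cells, and 3.43, 3.22 and 3.27 in Wnt-negative cells. Both GFP+ groups were above the Wnt-negative arrays in each run without overlap. However, all 6 Wnt-negative arrays, 3 of 6 Wnt-high arrays and 1 of 6 Wnt-low arrays were below background.

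The fitted Ifit1 difference was 1.06 ± 0.23 for Wnt-high minus Wnt-negative cells (limma adjusted p = 0.00148) and 1.72 ± 0.23 for Wnt-low minus Wnt-negative cells (limma adjusted p = 6.40e-05). With the Wnt-negative values set to background, the Wnt-low difference was 0.46. This is no bound, because the Wnt-low array of experiment 9 was itself below background. No size could be given for the Wnt-high difference. The Wnt-high difference in experiments 7 to 9 alone was 0.72 and did not pass (limma adjusted p = 0.124). Ifit1 was lower in Wnt-high than in Wnt-low cells, with a log2 difference of −0.66 ± 0.23 (limma adjusted p = 0.0447). That call was lost in 13 of 21 other settings, among them median centring (limma adjusted p = 0.0554), quantile normalization (0.0503) and leaving out experiment 3, 5, 7, 8 or 9.

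Oas1a (chromosome 5, 120896256 to 120907544) encodes an oligoadenylate synthetase, which senses double-stranded RNA and activates the ribonuclease RNase L. In experiments 2 to 5 it read 5.95, 6.48 and 6.25 in Wnt-high cells, 7.51, 6.55 and 6.80 in Wnt-low cells, and 5.28, 5.11 and 5.31 in Wnt-negative cells. In experiments 7 to 9 it read 4.94, 4.94 and 4.82 in Wnt-high cells, 7.44, 7.31 and 5.89 in Wnt-low cells, and 4.61, 4.08 and 4.34 in Wnt-negative cells. Wnt-low arrays were highest, Wnt-high arrays intermediate and Wnt-negative arrays lowest in each run, with no overlap between any of the groups.

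Oas1a was higher in Wnt-low than in Wnt-negative cells by 2.13 ± 0.27 (limma adjusted p = 4.18e-05), or at least 1.88 with the 3 Wnt-negative arrays below background set to that level. It was lower in Wnt-high than in Wnt-low cells, with a difference of −1.36 ± 0.27 (limma adjusted p = 0.00110) and the same sign in 5 of 5 experiments. Within the runs that difference was −0.73 (limma adjusted p = 0.108) in experiments 2 to 5 and −1.98 (limma adjusted p = 0.00936) in experiments 7 to 9. The difference of Wnt-high from Wnt-negative cells was 0.77 ± 0.27 (limma adjusted p = 0.0336), and it lost its call with the experiment as a replicate block, where the difference was 0.80 and the limma adjusted p 0.0691. It was also lost in experiments 7 to 9 alone, where the limma adjusted p was 0.385, and without experiment 2, 3, 4, 5 or 8, where it was 0.0530 to 0.0919. Oas1a has close paralogs, and cross-hybridization between their probe sets was not tested.

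Isg15 and Ifit3 could be read in only 1 of the runs. Isg15 (chromosome 4, 156199424 to 156200818) read 5.94 to 6.05 in the Wnt-high, 5.92 to 6.21 in the Wnt-low and 5.75 to 5.91 in the Wnt-negative arrays of experiments 2 to 5. In experiments 7 to 9 all its values, 4.27 to 4.50 in the Wnt-high, 4.27 to 4.52 in the Wnt-low and 4.08 to 4.27 in the Wnt-negative arrays, were below background, and 5 of those 9 arrays held the identical value 4.27. Equal values on 4 or more arrays of that run were found for 31.5% of all genes, and for 23.8% in experiments 2 to 5. Repeated values were not confined to those below background. In experiments 7 to 9 Irf7 read 5.01 on 3 arrays and Stat2 6.76 on 2 arrays. The effect of repeated values on the tests was not tested. The fitted Isg15 differences, 0.18 ± 0.06 for Wnt-high minus Wnt-negative cells (limma adjusted p = 0.0293) and 0.21 ± 0.06 for Wnt-low minus Wnt-negative cells (limma adjusted p = 0.0256), rested in part on those values. In experiments 2 to 5 alone they were 0.18 (limma adjusted p = 0.183) and 0.21 (limma adjusted p = 0.185), which did not pass. With quantile normalization over all arrays they were 0.16 (limma adjusted p = 0.102) and 0.12 (limma adjusted p = 0.259). Leaving out experiment 4, 7 or 9 ended the Wnt-high call (limma adjusted p = 0.0553 to 0.108), and leaving out experiment 3, 4 or 9 the Wnt-low one (limma adjusted p = 0.0525 to 0.112).

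Ifit3 (chromosome 19, 34583119 to 34588982), a partner of IFIT1 in RNA binding, passed in none of the 3 comparisons. It read 6.10 to 6.32 in the Wnt-high, 5.71 to 6.17 in the Wnt-low and 5.76 to 6.23 in the Wnt-negative group in experiments 2 to 5, where the groups overlapped, and it was below background on all arrays of experiments 7 to 9. Its limma adjusted p-values were 0.265, 0.923 and 0.414, and its 95% intervals ran from −0.06 to 0.33 for Wnt-high minus Wnt-negative, from −0.18 to 0.21 for Wnt-low minus Wnt-negative and from −0.07 to 0.31 for Wnt-high minus Wnt-low cells. Ifit1, on the same chromosome, passed in all 3, but the difference between Ifit1 and Ifit3 was not tested.

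The signalling factors split in direction. Stat2 (chromosome 10, 128270498 to 128292853), the STAT that is specific to type I and III interferon receptors, was lower in both GFP+ groups. In experiments 2 to 5 it read 7.90, 8.09 and 8.40 in Wnt-high cells, 7.81, 8.74 and 8.05 in Wnt-low cells, and 9.12, 9.08 and 9.38 in Wnt-negative cells. In experiments 7 to 9 it read 6.57, 6.76 and 6.05 in Wnt-high cells, 6.56, 6.76 and 6.58 in Wnt-low cells, and 7.38, 7.84 and 7.33 in Wnt-negative cells. All Wnt-negative arrays of a run were above all its Wnt-high and Wnt-low arrays, and those 2 groups overlapped.

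Stat2 had a difference of −1.06 ± 0.15 in Wnt-high minus Wnt-negative cells (limma adjusted p = 3.07e-05) and of −0.94 ± 0.15 in Wnt-low minus Wnt-negative cells (limma adjusted p = 3.05e-04). Within experiments 2 to 5 and 7 to 9 the first of these was −1.07 (limma adjusted p = 0.0149) and −1.06 (limma adjusted p = 0.00707). The second was −0.99 in experiments 2 to 5, where it missed the threshold (limma adjusted p = 0.0515), and −0.88 in experiments 7 to 9 (limma adjusted p = 0.0275). Between Wnt-high and Wnt-low cells the difference was −0.12, with a 95% interval from −0.45 to 0.21.

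Irf9 (chromosome 14, 55603985 to 55610030), the DNA-binding partner of STAT2, moved the same way by less. It read 7.17 to 7.36 in the Wnt-high, 7.09 to 7.36 in the Wnt-low and 7.47 to 7.73 in the Wnt-negative group in experiments 2 to 5, and 5.57 to 5.82 on the Wnt-high, 5.59 to 5.82 on the Wnt-low and 5.83 to 6.31 on the Wnt-negative arrays of experiments 7 to 9. Wnt-negative arrays were highest in each run without overlap. Its differences were −0.36 ± 0.08 for Wnt-high minus Wnt-negative cells (limma adjusted p = 0.00205) and −0.33 ± 0.08 for Wnt-low minus Wnt-negative cells (limma adjusted p = 0.00688). Neither passed in experiments 7 to 9 alone (limma adjusted p = 0.115 and 0.224), and in experiments 2 to 5 alone the Wnt-high difference passed (limma adjusted p = 0.0329) and the Wnt-low one did not (limma adjusted p = 0.0794).

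Irf7 (chromosome 7, 141263183 to 141266499), the factor that amplifies interferon production once it has been induced, went the other way. It read 5.93 to 6.29 in the Wnt-high, 6.05 to 6.30 in the Wnt-low and 5.75 to 5.85 in the Wnt-negative group in experiments 2 to 5, and 5.01 to 5.20 on the Wnt-high, 5.01 to 5.89 on the Wnt-low and 4.72 to 4.85 on the Wnt-negative arrays of experiments 7 to 9. The Wnt-negative arrays were lowest in each run without overlap, and 2 of them were below background. Irf7 was higher by 0.31 ± 0.12 in Wnt-high (limma adjusted p = 0.0456) and by 0.50 ± 0.12 in Wnt-low than in Wnt-negative cells (limma adjusted p = 0.00451). The Wnt-low call was lost within each run, with a limma adjusted p of 0.0555 in experiments 2 to 5 and of 0.131 in experiments 7 to 9. The Wnt-high call was lost in 11 of 20 other settings, among them quantile normalization, where the difference was 0.23 (limma adjusted p = 0.117), and leaving out experiment 3, 4, 5, 7 or 9 (limma adjusted p = 0.0541 to 0.128).

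Groups that did not overlap in either run gave a similar picture without a model, apart from calls of Isg15 and Ifit1. Usp18, Ifit1, Oas1a and Irf7 were higher on all Wnt-high arrays of a run than on all its Wnt-negative arrays, as were 12.9% of all genes, and Stat2 and Irf9 were lower, as were 17.8%. The same 4 and the same 2 genes were apart in Wnt-low against Wnt-negative cells, where 8.98% and 6.57% of all genes were. Usp18 alone was higher (8.04% of all genes) and Oas1a alone lower (10.3%) in Wnt-high against Wnt-low cells. Isg15, called higher by limma against Wnt-negative cells, overlapped in experiments 7 to 9. Ifit1, called lower in Wnt-high than in Wnt-low cells, overlapped in experiments 2 to 5.

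Across the 18 arrays, with the mean of each run removed, Usp18 followed other genes far more closely than it followed any member. The 8 genes most like it were Hydin (Pearson's r = 0.998), Rsph14 (0.997), Stk33, Spag6l, Dnah9, Dnaic1, Ak7 and Dydc2 (each 0.997 or 0.996), given as a description over arrays that share groups and runs. Hydin, Rsph14, Spag6l, Dnah9 and Dnaic1 encode parts of the motile ciliary axoneme, and the differences of the 8 ran from 7.07 to 9.38 in Wnt-high minus Wnt-negative cells. Spag6l, Dnah9, Hydin and Dnaic1 were also on the list of ciliated cell markers. For the members the correlation with Usp18 was 0.64 for Isg15, 0.58 for Ifit1, 0.52 for Irf7, 0.37 for Ifit3, 0.34 for Oas1a, −0.68 for Irf9 and −0.86 for Stat2. Isg15, the closest of them, was number 3690 of 30132 genes that varied.

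Among the other members, Ifit1, Oas1a, Irf7 and Isg15 correlated with each other. Ifit1 and Oas1a had a correlation of 0.91, which made Oas1a number 44 of 30132 genes by likeness to Ifit1. Irf7 had one of 0.813 with Ifit1 and of 0.815 with Oas1a, and Isg15 had 0.79 with Ifit1, 0.78 with Irf7 and 0.61 with Oas1a. Stat2 and Irf9 had one of 0.80. The 8 genes most like Isg15 were Ndufc1, Ddx18, Mrpl22, Nup37, Emg1, Hax1, Mrpl43 and Aga, with r of 0.91 to 0.88, and none of them was on an interferon list. The values of Isg15 in experiments 7 to 9 were below background, which touches every correlation with it.

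**Figure D3:**
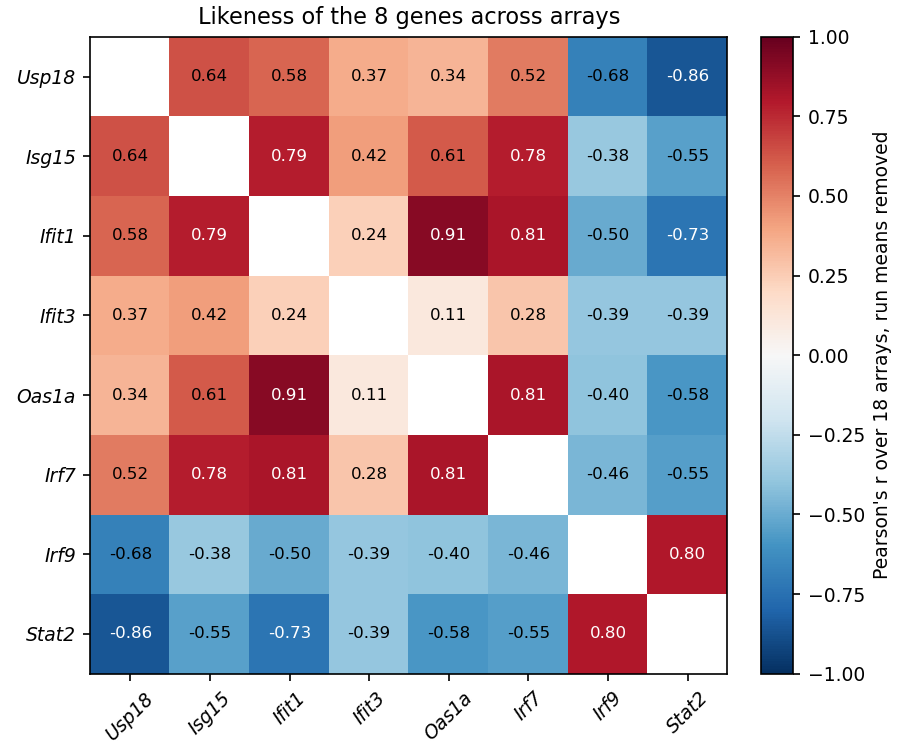
Pearson's r between the 8 genes over 18 arrays after the mean of each run was removed, from −1 (blue) to 1 (red). Usp18 reaches 0.64 at most (with Isg15), while Ifit1 with Oas1a reads 0.91 and Stat2 with Irf9 0.80.

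The level of Usp18 also ran with markers of ciliated cells, which line the conducting airways. Of 12 such markers 11 were measured, and all 11 were higher in each of the 3 comparisons, where 15.7%, 12.3% and 11.4% of all genes were. Their median difference was 9.22 in Wnt-high minus Wnt-negative, 5.17 in Wnt-low minus Wnt-negative and 3.73 in Wnt-high minus Wnt-low cells. Their summed log2 level was 160 to 165 on Wnt-high arrays, 101 to 152 on Wnt-low arrays and 47.9 to 78.8 on Wnt-negative arrays, where 1 to 11 of the 11 were above background. Among the Wnt-low arrays the mean of the markers was 13.8, 9.65 and 12.5 in experiments 3, 4 and 5, and 9.14, 11.26 and 10.04 in experiments 7, 8 and 9. Usp18 had the same order within each run, with 12.50, 8.20 and 10.48 in experiments 3, 4 and 5, and 7.41, 10.08 and 8.83 in experiments 7, 8 and 9. The part of ciliated cells in the Usp18 result was not tested.

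**Figure D4:**
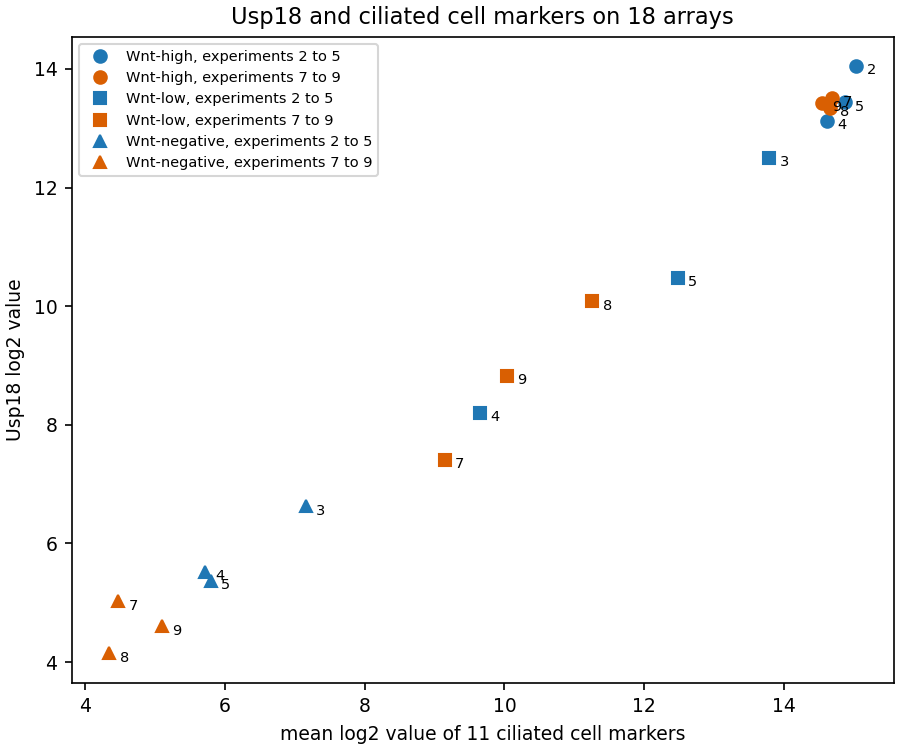
Usp18 log2 value (vertical axis) against the mean log2 value of 11 ciliated cell markers (horizontal axis) on 18 arrays, with circles for Wnt-high, squares for Wnt-low and triangles for Wnt-negative cells, colours for the runs and numbers for the experiments. The arrays lie near 1 line, and the Wnt-low arrays are strung out along it from 7.41 to 12.50.

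Markers of secretory cells ran with Oas1a in the sense that Wnt-low arrays were highest in each run. For Ifit1 this held for the group means only, as its Wnt-high and Wnt-low arrays overlapped in experiments 2 to 5. The 6 goblet and mucous cell markers had a summed log2 level of 44.5 to 69.7 in the Wnt-high, 75.0 to 86.0 in the Wnt-low and 27.2 to 36.7 in the Wnt-negative group. Above background were 4 to 6 of them on Wnt-high, all 6 on Wnt-low and 2 to 4 on Wnt-negative arrays. The 5 club cell markers measured summed to 66.7 to 80.6 on the Wnt-high, 83.1 to 90.7 on the Wnt-low and 60.6 to 69.3 on the Wnt-negative arrays, with all 5 above background on every array. In Wnt-high against Wnt-negative cells 4 markers of each list were higher, where 15.7% of all genes were. On each list 1 was lower (Spdef and Aox3), where 24.6% of all genes were. Stat2 was highest in Wnt-negative cells, and markers of alveolar cells were also called lower in the GFP+ groups. Of 8 alveolar type II markers 7 were lower in Wnt-high and 3 in Wnt-low against Wnt-negative cells, where 24.6% and 13.2% of all genes were. These markers summed to 93.4 to 133 in the Wnt-high, 118 to 142 in the Wnt-low and 143 to 151 in the Wnt-negative group. Sftpc, the surfactant protein gene that defines type II cells, did not pass in any comparison (0.004 in Wnt-high minus Wnt-negative cells, limma adjusted p = 0.971). Of 6 alveolar type I markers 5 were lower and 1 was higher in Wnt-high, and 3 were lower in Wnt-low, against Wnt-negative cells. The shares of all genes were 24.6%, 15.7% and 13.2% in the same order. Type I markers summed to 29.7 to 51.8 in the Wnt-high, 41.9 to 57.3 in the Wnt-low and 48.9 to 59.5 in the Wnt-negative group. The part of these cell types in the results was not tested.

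The genes beside Usp18 on chromosome 6 did not follow it. Pex26 and Tuba8 before it and Slc6a13 and Slc6a12 after it passed in none of the 3 comparisons, with differences of −0.14 to 0.07. Slc6a13 and Slc6a12 were below background on all 18 arrays, while Pex26 was above it on 9 and Tuba8 on 10. A long noncoding gene, Gm44148, overlaps Usp18 and was not measured here.

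The wider pathway was described by lists of genes, whose counts stand beside the shares of all genes called. Those were 15.7% higher and 24.6% lower in Wnt-high against Wnt-negative cells, and 12.3% and 13.2% in Wnt-low against Wnt-negative cells. In Wnt-high against Wnt-low cells they were 11.4% and 16.4%. Whether a list exceeded these shares was not tested. Of 10 interferon genes, the ligands, 6 were at or below background on all 18 arrays (Ifna1, Ifna2, Ifna5, Ifnk, Ifne and Ifng). In Wnt-high against Wnt-negative cells Ifng was higher by 0.11 and Ifna4 and Ifnl3 had differences of −0.30 and −0.20 (limma adjusted p = 0.0139, 0.0292 and 0.00155), all on arrays mostly below background. Ifnl3 had −0.20 in Wnt-low minus Wnt-negative cells (limma adjusted p = 0.00331), and Ifnl2 had 0.14 in Wnt-high minus Wnt-low cells (limma adjusted p = 0.00673), where 1 ligand was higher and none lower, or 1 higher and 1 lower with the experiment as a replicate block. Ifnb1 passed in none of the comparisons, with a difference of −0.22 in Wnt-high minus Wnt-negative cells (limma adjusted p = 0.417).

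Of 9 receptor and kinase genes, 2 were higher and 4 lower in Wnt-high against Wnt-negative cells, or 2 higher and 3 lower with the experiment as a replicate block. Ifnar2, the receptor subunit to which USP18 binds, was lower in Wnt-high cells by a log2 difference of −2.17 ± 0.25 (limma adjusted p = 2.68e-06). It read 8.98, 10.07 and 9.31 in Wnt-high cells of experiments 2, 4 and 5, against 11.17, 11.31 and 11.30 in Wnt-negative cells of experiments 3, 4 and 5. In experiments 7 to 9 it read 7.28, 8.05 and 7.96 in Wnt-high cells, against 10.96, 9.97 and 9.97 in Wnt-negative cells, again without overlap. Ifnar2 was also lower in Wnt-high than in Wnt-low cells, with a difference of −2.24 ± 0.25 (limma adjusted p = 8.09e-06), and its Wnt-low minus Wnt-negative difference was 0.06 (limma adjusted p = 0.887).

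Jak1, the kinase bound to IFNAR2, had a difference of −1.13 and Ifngr1, a receptor chain for interferon gamma, one of 0.87 in Wnt-high minus Wnt-negative cells (limma adjusted p = 1.32e-07 and 2.20e-05). Ifnar1, the other type I receptor chain, did not pass in that comparison (−0.10, limma adjusted p = 0.424) and was lower in Wnt-low than in Wnt-negative cells, by a difference of −0.45 (limma adjusted p = 0.00181). With it, Jak2 (−0.90, limma adjusted p = 3.07e-05) and Jak1 (−0.36, limma adjusted p = 0.0122) made up the 3 of 9 genes that were lower in Wnt-low cells, and none was higher. In Wnt-high against Wnt-low cells 4 were higher, led by Ifngr1 (0.96, limma adjusted p = 2.09e-05), and 2 were lower, Ifnar2 and Jak1 (−0.77, limma adjusted p = 2.28e-05).

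Of the other STAT and IRF factors 6 were measured. In Wnt-high against Wnt-negative cells 1 was higher and 3 were lower, led by Stat3 (−1.37), Irf2 (−0.83) and Irf1 (−0.45), with limma adjusted p-values of 1.44e-07, 1.98e-04 and 1.81e-04. In Wnt-low against Wnt-negative cells Stat3 (−0.42, limma adjusted p = 0.0164) and Irf1 (−0.24, limma adjusted p = 0.0360) were lower and none was higher, or 2 lower and 1 higher with the experiment as a replicate block. In Wnt-high against Wnt-low cells 3 were lower, Stat3 (−0.94, limma adjusted p = 2.07e-05), Irf2 (−0.60, limma adjusted p = 0.00474) and Irf8, and none was higher. Irf8 was below background on every array of both groups, and its difference of −0.17 (limma adjusted p = 0.0258) lost its call with the experiment as a replicate block (limma adjusted p = 0.0617), where Irf1 passed (limma adjusted p = 0.0463, against 0.0548 without the block).

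The enzymes that attach ISG15 differed in direction. Uba7 encodes the activating enzyme and Ube2l6 the conjugating enzyme for ISG15, and Herc6 the ligase in mice. Ube2l6 was higher in the Wnt-high than in the Wnt-negative group by 0.79 ± 0.12 (limma adjusted p = 4.11e-05) and in Wnt-low than in Wnt-negative cells by 0.45 ± 0.12 (limma adjusted p = 0.0108). Its Wnt-high minus Wnt-low difference of 0.35 (limma adjusted p = 0.0386) lost its call with the experiment as a replicate block (limma adjusted p = 0.110). Uba7 was higher in Wnt-low than in Wnt-negative cells by 0.51 ± 0.12 (limma adjusted p = 0.00390) and missed the threshold for Wnt-high minus Wnt-negative cells (0.31, limma adjusted p = 0.0505), but passed there with the experiment as a replicate block (limma adjusted p = 0.0295). Its Wnt-high minus Wnt-low difference of −0.21 (limma adjusted p = 0.239) also passed with the block (limma adjusted p = 0.0441). Herc6 was lower, with differences of −0.85 in Wnt-high and −0.56 in Wnt-low minus Wnt-negative cells (limma adjusted p = 6.59e-06 and 0.00101). Of the 8 genes on this list 3 were higher and 4 lower in Wnt-high, and 2 higher and 3 lower in Wnt-low, against Wnt-negative cells, and 3 were higher and 2 lower in Wnt-high against Wnt-low cells, or 2 higher and 3 lower with the block.

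Other restraints of interferon signalling were called in both directions. Of 8 measured, 1 was higher and 3 were lower in Wnt-high against Wnt-negative cells (1 and 2 with the experiment as a replicate block), 1 and 2 in Wnt-low against Wnt-negative cells, and 1 and 3 in Wnt-high against Wnt-low cells. The 3 lower in Wnt-high against Wnt-negative cells include Socs3, which was below background on every array of both groups. Pias1, an inhibitor of activated STAT proteins, had a difference of −1.60 in Wnt-high and of −1.03 in Wnt-low minus Wnt-negative cells (limma adjusted p = 8.33e-07 and 2.68e-04). Ptpn1, a phosphatase of JAK2 and TYK2, had differences of −0.74 in Wnt-high and −0.36 in Wnt-low minus Wnt-negative cells (limma adjusted p = 1.62e-05 and 0.0135). Trim24 was higher in Wnt-low than in Wnt-negative cells by 1.002 (limma adjusted p = 2.81e-04), and Ptpn6 had a difference of 0.36 in Wnt-high minus Wnt-negative cells (limma adjusted p = 4.06e-04).

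Among 13 nucleic acid sensing genes, 3 were higher and 5 lower in Wnt-high, and 5 higher and 1 lower in Wnt-low, against Wnt-negative cells. Ikbke, a kinase that phosphorylates IRF3 and IRF7, was higher by 2.57 ± 0.19 in Wnt-high (limma adjusted p = 2.13e-08) and by 1.32 ± 0.19 in Wnt-low cells (limma adjusted p = 9.99e-05). Sting1, the adaptor for cytosolic DNA, differed in direction, with −1.55 ± 0.27 in Wnt-high minus Wnt-negative cells (limma adjusted p = 1.63e-04) and 1.27 ± 0.27 in Wnt-low minus Wnt-negative cells (limma adjusted p = 0.00206). The difference between those groups was −2.81 ± 0.27 for Wnt-high minus Wnt-low cells (limma adjusted p = 2.94e-06). Ddx58, which encodes the RNA sensor RIG-I, had −1.43 in Wnt-high minus Wnt-negative cells (limma adjusted p = 1.23e-06), and Tlr3, a sensor of double-stranded RNA in endosomes, had 0.92 in Wnt-low minus Wnt-negative cells (limma adjusted p = 1.94e-05). In Wnt-high against Wnt-low cells 2 of the 13 were higher and 5 lower.

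The largest list, further effectors of type I interferon, had 42 of 45 genes measured. In Wnt-high against Wnt-negative cells 12 were higher and 11 lower, with a median of 0.06, in Wnt-low against Wnt-negative cells 16 were higher and 3 lower, with a median of 0.12, and in Wnt-high against Wnt-low cells 12 were higher and 16 lower, with a median of −0.10. With the experiment as a replicate block these counts were 12 and 10, 14 and 4, and 11 and 13. The medians over all genes were −0.05, −0.03 and −0.01. Some of the called genes were below background on every array of the groups compared. They include Ifi27l2a, lower in Wnt-high against Wnt-negative cells, and Oas2 and Ddx60, higher in Wnt-low against Wnt-negative cells. Cmpk2, a mitochondrial nucleotide kinase induced by interferon, read 11.68 to 11.96 in the Wnt-high, 8.37 to 10.48 in the Wnt-low and 7.30 to 7.59 in the Wnt-negative arrays of experiments 2 to 5. In the later run it read 10.53 to 10.74 in the Wnt-high, 7.30 to 7.87 in the Wnt-low and 5.54 to 5.89 in the Wnt-negative arrays. It was higher by 4.65 ± 0.26 in Wnt-high minus Wnt-negative, 1.96 ± 0.26 in Wnt-low minus Wnt-negative and 2.69 ± 0.26 in Wnt-high minus Wnt-low cells (limma adjusted p = 4.39e-09, 4.82e-05 and 3.05e-06). Its correlation with Usp18 over the 18 arrays was 0.985, the highest of the pathway genes named here.

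Lgals3bp, a secreted glycoprotein that binds galectin 3, and Ifitm3, which blocks the entry of enveloped viruses, were also higher in both GFP+ groups. Lgals3bp was higher by 5.06 ± 0.37 in Wnt-high and 3.26 ± 0.37 in Wnt-low than in Wnt-negative cells (limma adjusted p = 2.10e-08 and 1.50e-05), and Ifitm3 by 5.00 ± 0.28 in Wnt-high and 4.13 ± 0.28 in Wnt-low cells (limma adjusted p = 4.57e-09 and 1.22e-07). Their correlations with Usp18 were 0.976 and 0.918. Lgals9, which encodes galectin 9, was lower, with −4.06 ± 0.43 in Wnt-high and −1.78 ± 0.43 in Wnt-low minus Wnt-negative cells (limma adjusted p = 1.12e-06 and 0.00594). In Wnt-high minus Wnt-low cells Lgals9 had −2.28 (limma adjusted p = 6.51e-04) and Lgals3bp 1.80 (limma adjusted p = 0.00133). Ifitm3 differed there by 1.42 in experiments 2 to 5, and by 0.33 in experiments 7 to 9, where these 2 groups overlapped.

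The interferon gamma list, with 14 of 17 genes measured, had none higher and 8 lower in Wnt-high against Wnt-negative cells, 1 higher and 1 lower in Wnt-low against Wnt-negative cells, and none higher and 6 lower in Wnt-high against Wnt-low cells. With the experiment as a replicate block 6 were lower in Wnt-high against Wnt-negative and 5 in Wnt-high against Wnt-low cells. Of all genes, 24.6% and 16.4% were lower in these comparisons without the block. Ciita, the master regulator of MHC class II genes, had −1.77 in Wnt-high and −1.43 in Wnt-low minus Wnt-negative cells (limma adjusted p = 1.03e-06 and 4.87e-05). Psmb8 and Tapbp, of the immunoproteasome and the peptide loading complex, had −0.98 and −0.83 in Wnt-high minus Wnt-negative cells (limma adjusted p = 1.63e-05 and 2.10e-04). Psmb10, another immunoproteasome subunit, was higher in Wnt-low than in Wnt-negative cells by 0.70 (limma adjusted p = 0.00753) and had −1.37 in Wnt-high minus Wnt-low cells (limma adjusted p = 2.28e-05).

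**Figure D5:**
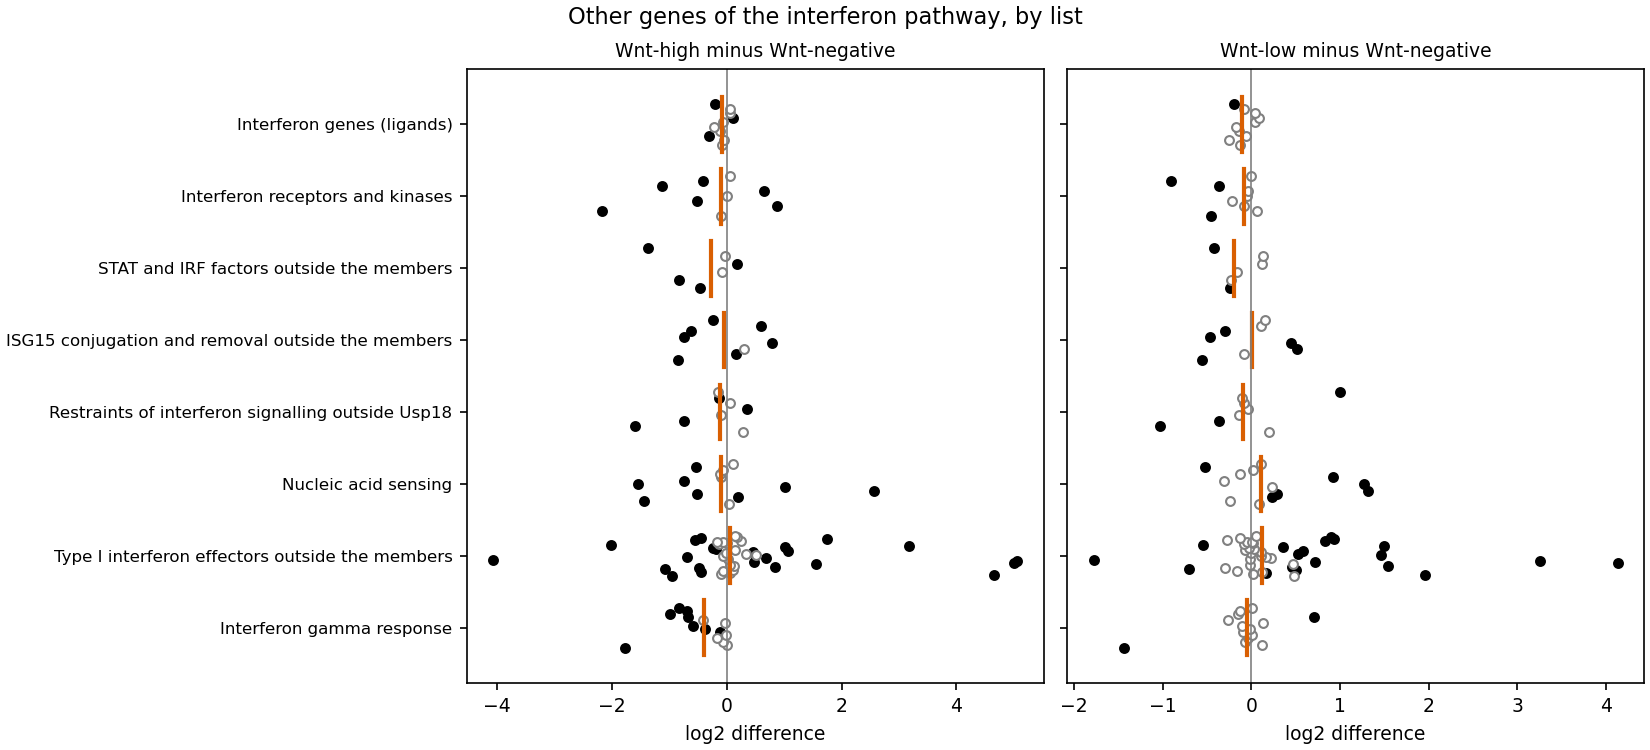
Log2 differences (horizontal axes) of every measured gene of 8 interferon lists, for Wnt-high minus Wnt-negative cells on the left and Wnt-low minus Wnt-negative cells on the right. Filled points passed an adjusted p of 0.05 and orange bars are medians. The bars lie near 0, while single genes such as Lgals3bp (5.06) and Lgals9 (−4.06) lie far from it.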

How the data were processed

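RNA of sorted cells was measured on 18 Affymetrix arrays after WT Pico amplification. The authors deposited a log2 value for each of 72688 probe sets, which they obtained with RMA per the submitters' processing notes. No source used here names the program, its version or a genome build. Values reached 19.9, above the log2 limit of a 16-bit scanner, so a difference holds on that scale only and is no ratio of RNA amounts. Control probe sets aside, 30604 of 65956 had 1 symbol, 2146 several and 33206 none. These gave 30142 genes, of which 355 had several probe sets, with 827 symbols updated through gene identifiers. The assignment of arrays to 2 runs, and their separate normalization, were inferred from array medians and decimals and are not stated in the labels.

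Differences were tested with limma 3.58.1 in R 4.3.3 (lmFit and eBayes, two-sided), with group and run as terms, an adjusted p threshold of 0.05 and no filter on dim genes. The script was tested on simulated data. Background bounds set each value of the lower group that was below an array's background to that background, and left the higher group as deposited, before means were taken. Single changes were compared by exact permutation in Python 3.11.15. The number of arrays limits the precision, and no dates or slides were used.

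The experiment number pairs arrays, since the labels give the same experiment to arrays of different groups. Residuals of the 16 same-experiment pairs correlated at 0.486 to 0.802, and at 0.00339 to 0.516 with run means removed, where 12 of 16 were above 0.1. Fits with the experiment as a block are given where they change the count of an interferon list or the call of a gene named for that comparison.

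The 8 genes and all lists were chosen with earlier results of these data known. Named outside the 8 were up to 3 called genes per interferon list and comparison, the ligands, Uba7, Ube2l6, Ifnar1 and Ifnar2, the 8 genes most like Usp18 and Isg15, and the neighbours of Usp18. Epcam was added as a check of the sort. Alternatives were a fit without the run, experiment blocks (fixed and random), single runs, median centring, quantile normalization, a filter on dim genes, the mean over a gene's probe sets, fits of 2 groups only, eBayes with trend and robust settings, array weights, a minimum difference, and the omission of each experiment in turn.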

Additional observations from a re-analysis of the deposited data

Results flagged for a closer look

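In each of 24 sets of 6 arrays (8 genes in 3 groups, run means removed), the array farthest out was compared with the range of its set, and 2 exceeded Dixon's critical value of 0.625. Chance gives about 1 in 20. Ifit3 on the Wnt-low array of experiment 4 lay below the others, with a gap of 0.786 of the range. Irf7 on the Wnt-low array of experiment 8 lay above the others, with a gap of 0.634 of the range. On these arrays Ifit3 read 5.71, against 6.17 on both other Wnt-low arrays of its run, and Irf7 read 5.89, against 5.17 and 5.01 in experiments 7 and 9.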

How the results depend on the processing

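No difference of a called gene among the 8 changed sign under any setting tried. Without the run term the genes called fell to 2824 in Wnt-high against Wnt-negative, 1061 in Wnt-low against Wnt-negative and 1351 in Wnt-high against Wnt-low cells, against 12142, 7697 and 8402 with it, and of the 8 genes 1 and 3 were called in the comparisons with Wnt-negative cells. In experiments 7 to 9 alone, with 9 arrays, 7906 and 4471 genes and 2 and 4 of the 8 were called in those comparisons. In experiments 2 to 5 alone 2532 genes and 3 of the 8 were called in Wnt-low against Wnt-negative cells, and 3291 genes and 0 of the 8 in Wnt-high against Wnt-low cells by limma, where Usp18 and Oas1a, 2 of 8, had an unadjusted p under 0.05. No other tool was run for that count. With a minimum difference of 1, 4188, 2305 and 2742 genes were called in the 3 comparisons, and 3 of the 8 in each comparison with Wnt-negative cells. Leaving out each experiment gave 10772 to 11618, 6071 to 7660 and 7178 to 8582 genes and 4 to 6, 6 to 7 and 2 to 3 of the 8. The lowest of these, 4, came without experiment 4, where Isg15, Oas1a and Irf7 lost their calls in Wnt-high against Wnt-negative cells.

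With the experiment as a fixed replicate block, Oas1a in Wnt-high against Wnt-negative cells was the only call among the 8 that changed (limma adjusted p = 0.0691). With the experiment as a random block no call among the 8 changed. Usp18 kept its call under all 20 and all 21 settings in the comparisons with Wnt-negative cells, and under 20 of 21 in Wnt-high against Wnt-low cells. Of 273 recomputed gaps between the change of Usp18 and that of another of the 8, none changed sign and the smallest was 1.64. Gaps in single runs and within experiments were compared in sign and size only, so they could not lose a call. Of these, 14 moved by at least the standard deviation of arrays within groups and runs. In the other settings 5 gaps, all against Oas1a in Wnt-low against Wnt-negative cells, lost their call. Leaving out the Wnt-low arrays of experiments 3 and 4, a setting chosen after seeing the data, ended the calls of Isg15 in Wnt-low against Wnt-negative cells (limma adjusted p = 0.0805) and of Ifit1 in Wnt-high against Wnt-low cells (limma adjusted p = 0.0548). Isg15 and Ifit3 were each below background on 9 of 18 arrays. The cause of the other changes was not tested.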
